A study of Mus musculus with 5 samples.

Results

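The 9 genes described here, Pax1 to Pax9, are the whole Pax family of the mouse, taken by symbol from the 55450 genes annotated on GRCm38, of which 21951 are protein-coding. The peaks of each library that lie within 3000 bp of an annotated start site of one of these genes, or in its gene body, were compared between stages. The data are H3K27me3 ChIP-seq peak lists of wild-type dermal fibroblasts from embryonic mouse skin, with 2 libraries labelled E14 and 2 labelled E17 (embryonic days 14 and 17). None of the libraries carries a mutation or a treatment, and the paper of the study gives later embryonic stages for the same libraries. The fibroblasts were grown in culture before fixation, which limits how far they stand for the dermis itself, and the labels do not say whether the libraries of a stage came from separate embryos. An input library shared by both stages was not used here.

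Pax proteins are transcription factors that bind DNA through the paired domain, and they direct the formation of organs and lineages in the embryo. They fall into subfamilies of close relatives, Pax1 with Pax9, Pax2 with Pax5 and Pax8, Pax3 with Pax7, and Pax4 with Pax6. H3K27me3 is trimethylation of lysine 27 of histone H3, placed by Polycomb repressive complex 2 and removed by the demethylases Kdm6a and Kdm6b, and it covers broad domains over silent developmental genes, often at sequence rich in CpG dinucleotides. Pax3 and Pax7 act in the dermomyotome, the part of the somite that gives the dermis of the back, and the other members are known from organs outside the skin.

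A CpG is a C followed by a G, which reads the same on both strands. The promoters of 5 members are shown to let the CpG content of the sequence under the domains be seen. They run from 250 bases before to 50 bases after a RefSeq start, 5′ to 3′ on the strand of the gene in GRCm38.p6, with each CG in capitals. The sequences are from chr2:105668646-105668945 on the plus strand for Pax6, chr19:44756656-44756955 on the plus strand for Pax2, chr4:44710645-44710944 on the minus strand for Pax5, chr2:147364744-147365043 on the plus strand for Pax1 and chr2:24475550-24475849 on the minus strand for Pax8. Pax6 had the widest single start-site peak of the family at E17, Pax2 the promoter with the most CpG, Pax5 the highest mean percentile of fold enrichment at E17, Pax1 the single promoter of those in the table that was outside the peaks of an E17 library, and Pax8 a promoter with as many CpG as the median promoter. The Pax1 promoter shown lies at an internal start, 3.07 kb downstream of the start of the gene.
Pax6: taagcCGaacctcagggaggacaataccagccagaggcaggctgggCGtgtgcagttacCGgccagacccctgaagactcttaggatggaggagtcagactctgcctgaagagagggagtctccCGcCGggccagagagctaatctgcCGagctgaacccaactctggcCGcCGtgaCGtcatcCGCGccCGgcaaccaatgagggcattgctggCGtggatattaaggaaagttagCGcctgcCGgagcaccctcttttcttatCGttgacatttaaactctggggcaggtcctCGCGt
Pax2: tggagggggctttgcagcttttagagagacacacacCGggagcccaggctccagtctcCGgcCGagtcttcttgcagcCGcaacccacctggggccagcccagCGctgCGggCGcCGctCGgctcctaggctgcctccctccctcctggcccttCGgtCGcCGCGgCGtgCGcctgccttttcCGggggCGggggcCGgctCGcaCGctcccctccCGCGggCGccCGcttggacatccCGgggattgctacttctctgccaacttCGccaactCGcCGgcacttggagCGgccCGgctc
Pax5: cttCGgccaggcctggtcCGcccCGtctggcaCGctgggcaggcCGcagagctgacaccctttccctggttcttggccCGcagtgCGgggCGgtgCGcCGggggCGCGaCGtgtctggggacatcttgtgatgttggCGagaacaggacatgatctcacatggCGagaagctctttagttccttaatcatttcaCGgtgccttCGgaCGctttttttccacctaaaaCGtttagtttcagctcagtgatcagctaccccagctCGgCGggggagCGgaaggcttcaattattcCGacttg
Pax1: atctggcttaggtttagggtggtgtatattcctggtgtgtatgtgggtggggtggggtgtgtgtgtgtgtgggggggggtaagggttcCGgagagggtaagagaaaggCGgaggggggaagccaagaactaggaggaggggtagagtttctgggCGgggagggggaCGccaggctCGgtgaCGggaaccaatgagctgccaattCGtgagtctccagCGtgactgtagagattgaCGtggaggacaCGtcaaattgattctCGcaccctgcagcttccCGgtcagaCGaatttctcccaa
Pax8: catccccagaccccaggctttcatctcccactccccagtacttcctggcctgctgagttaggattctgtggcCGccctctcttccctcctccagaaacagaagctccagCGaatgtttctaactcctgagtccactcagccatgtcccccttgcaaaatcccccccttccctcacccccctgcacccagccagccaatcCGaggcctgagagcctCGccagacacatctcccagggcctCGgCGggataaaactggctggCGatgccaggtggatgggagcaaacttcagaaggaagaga
The Pax6 promoter held 18 CG, the Pax2 promoter 30, the Pax5 promoter 23, the Pax1 promoter 13 and the Pax8 promoter 7. The median of the 32851 promoters of the RefSeq table was 7 CG, and 94.6% of them held at least 1. The table had 10 promoters of 7 Pax genes, and Pax3 and Pax4 had no entry. In all 4 libraries peaks covered the full 300 bases of these promoters, apart from the Pax1 promoter above, of which 0 bases were covered in E17 replicate 1 and 300 in each of the other libraries.

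The E14 lists held 21546 and 16574 peaks over 52804 and 32078 kb, and the E17 lists 10429 and 7107 peaks over 19996 and 14337 kb, so that the mean covered length was 59.6% lower at E17. Read counts are not part of the lists, from which the depth of each library could therefore not be read, and a stretch outside the peaks can lie just under the threshold of its list. Of 10 genes that dermal fibroblasts use, among them Col1a1, Pdgfra and Twist2, 0 carried a peak at a start site in these libraries. Of 23 marker genes of other cell types that skin holds, 8 had a peak in both E14 libraries and 5 in both E17 libraries, while 14 had none in any library. The shares of all annotated genes were 11.6% in both E14 and 7.11% in both E17 libraries. Shares of this size would leave most genes of any list without a peak, and the markers were chosen with earlier results of these data known. With 2 libraries against 2, an exact permutation test has 3 splits and cannot give a p below 0.333, so the comparisons of stages below are descriptions.

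All 9 Pax genes carried H3K27me3 near a start site in each of the 4 libraries. Among all annotated genes, a peak near a start site was found in both E14 libraries for 11.6%, in both E17 libraries for 7.11% and in all 4 for 6.98%. Among protein-coding genes the first of these shares was 19.5% and the next 12.2%. A gene is called marked at a stage where both of its libraries hold such a peak, and of the 6441 genes marked at E14, 60.1% were also marked at E17. The 9 genes lie on chromosomes 1, 2, 4, 6, 12 and 19 and have 56 annotated start sites, of which 51 and 52 were inside a peak in the E14 libraries and 48 in each of the E17 libraries. The number inside a peak in all 4 libraries was 47, of which 24 were start sites of Pax6 under 1 peak. No share of all annotated start sites is set beside these counts, so they are not read as a result. The 3 start sites that were inside a peak in both E14 libraries and in neither E17 library all belonged to Pax4. The 4 start sites in no peak were internal starts, at 26.7 and 64.8 kb from the start of Pax5 and at 29.7 and 52.5 kb from the start of Pax8. A peak records the mark in the bulk of the cells, so that fewer cells with the mark and less of the mark in each cell cannot be told apart, and the mark does not measure expression.

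**Figure D1:**
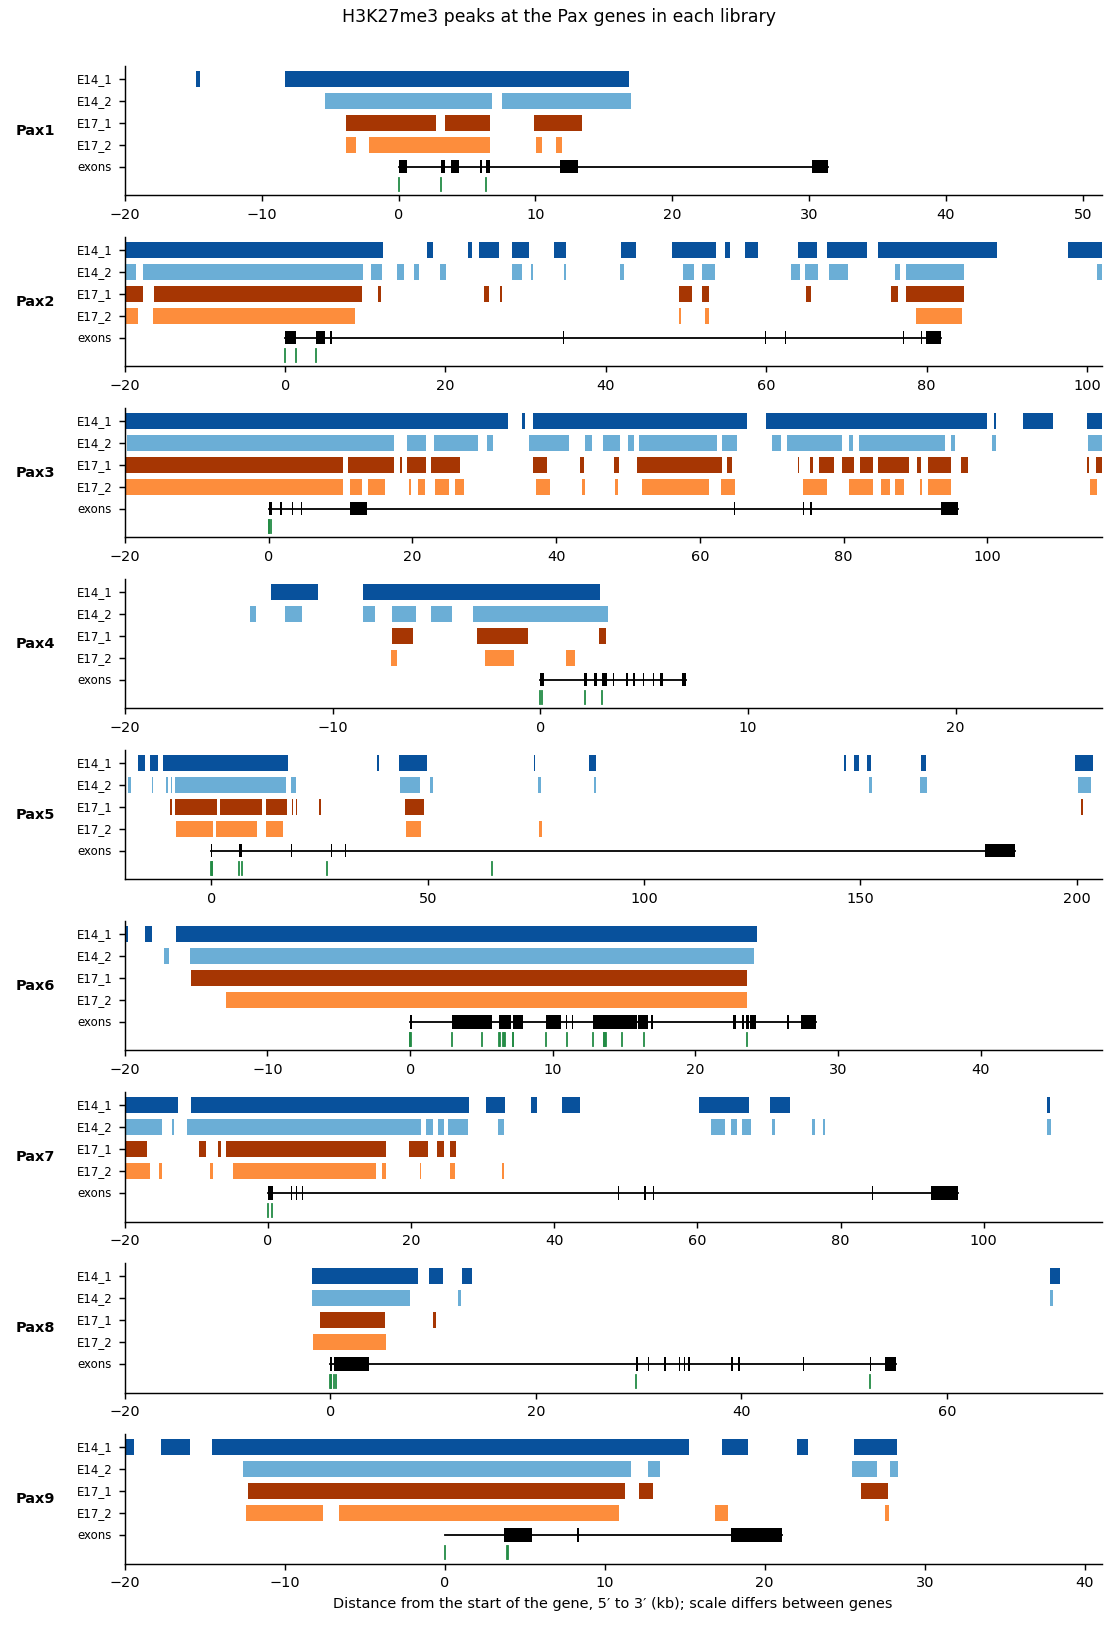
Peaks of each library at the 9 Pax genes, with the distance from the start of the gene along its strand in kb on the x axis (the scale differs between genes) and 1 line of bars per library, blue for E14 and orange for E17. Black boxes are exons joined over all transcripts and green ticks are annotated start sites. The bars at the starts of Pax2, Pax3, Pax6, Pax7 and Pax9 were at least 10 kb wide in all 4 libraries, while the bars at Pax4 left the start of the gene at E17.

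The windows around the start sites were covered over a shorter length at E17 in 5 of the 9 genes and in full at both stages in the other 4. The 125.6 kb of windows of the 9 genes were covered over 94.96 and 94.45 kb in the E14 libraries and over 86.8 and 85.85 kb in the E17 libraries. Both E17 values lay below both E14 values, and the mean was 8.85% lower at E17, 94.7 ± 0.364 kb (SD, n = 2) against 86.3 ± 0.671 kb (SD, n = 2). Over the windows of all genes marked at E14 the decrease was 44.1%. With every list reduced to the covered length of the shortest list, keeping the peaks with the highest −log10 q-values, the decrease in the Pax windows was 2.08%. The value for all genes was not computed with such lists, so 2.08% cannot be set against 44.1%. The windows covered in full in every library were those of Pax2, Pax3, Pax7 and Pax9, so that a loss inside the peak could not show in this measure.

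The number of Pax genes whose windows were covered less in both E17 libraries than in both E14 libraries was 5 of 9, namely Pax1, Pax4, Pax5, Pax6 and Pax8, beside 81.9% of all genes marked at E14. With windows of 1000 bp this number was 3. A window covered more in both E17 libraries was found for 0 of 9, beside 0.326% of those genes. Retention is used below for the mean covered length at E17 as a percent of that at E14. The median retention of the 9 windows was 97.7%, with a range from 38.1% to 100%, and the median of all genes marked at E14 was 39.9%, with quartiles of 0% and 70.5%. Among genes marked in all 4 libraries the median was 64.1%. The 645 genes in the top 10% by percentile of fold enrichment at E14, a group that held 6 of the 9 Pax genes, had a median retention of 95.1%, and 43.7% of them were covered less in both E17 libraries.

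**Figure D2:**
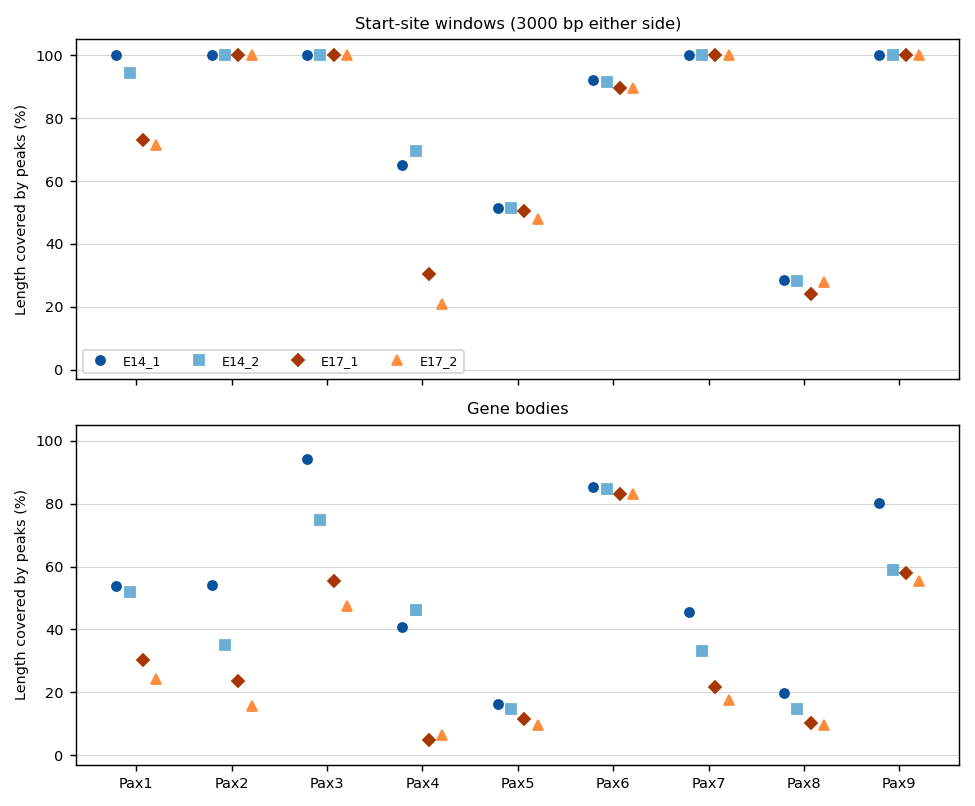
Percent of the start-site windows (upper panel) and of the gene bodies (lower panel) covered by peaks, on the y axis, for each Pax gene on the x axis, with 1 point per library. The windows of Pax2, Pax3, Pax7 and Pax9 sit at 100% in all 4 libraries, and in the lower panel both E17 points lie below both E14 points for all 9 genes.

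The gene bodies differed more between the stages than the windows. Peaks covered 280.5 and 223.8 kb of the 602.8 kb of Pax gene bodies in the E14 libraries and 166.6 and 141.9 kb in the E17 libraries, which is 46.5%, 37.1%, 27.6% and 23.5% of their length. The mean was 38.8% lower at E17, 252.1 ± 40.1 kb (SD, n = 2) against 154.2 ± 17.4 kb (SD, n = 2). Over the bodies of all genes with a body peak in both E14 libraries the decrease was 52.6%. The body of each of the 9 genes was covered less in both E17 libraries than in both E14 libraries, beside 78.0% of the 5895 genes with a body peak in both E14 libraries. With lists of equal covered length the decrease in the Pax bodies was 15.4%, and the value for all genes was not computed with such lists. The parts of the bodies outside the start-site windows, 504.7 kb in all, were covered over 211.3, 155.0, 104.1 and 79.3 kb in E14 replicates 1 and 2 and E17 replicates 1 and 2, a decrease of 49.9%.

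Bases covered in both replicates of a stage numbered 94059 in the windows at E14 and 83368 at E17, and 100% of those at E17 were already covered at E14. In the gene bodies the same numbers were 214358 and 132805, of which 98.7% of the E17 bases were covered at E14, and 61.2% of the E14 bases were kept. Nesting of this kind was general, since over the whole lists 95.7% of the bases covered in both E17 libraries were covered in both E14 libraries, and 97.7% over the start-site windows of all genes. The shares of E14 bases kept were 41.9% over the whole lists and 50.99% over those windows, beside 88.6% over the Pax windows.

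**Figure D3:**
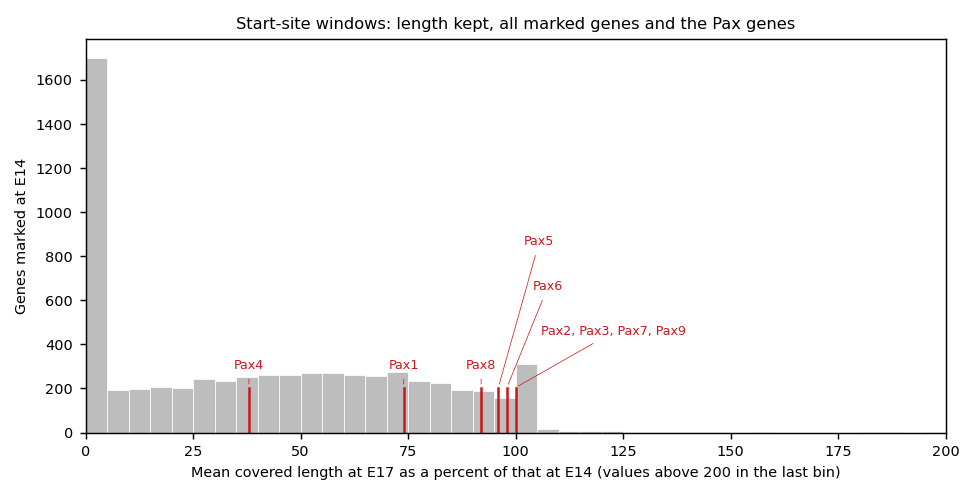
Number of genes marked at E14 (y axis) by retention of the start-site windows in percent (x axis, bins of 5 percentage points), with the 9 Pax genes as red marks. The tallest bin, at the left edge, holds genes that kept next to nothing, while Pax4 sits at 38.1%, Pax1 at 74.3% and the other 7 Pax genes above 91%.

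Pax6 and Pax4 work in the eye and the pancreas, where Pax6 is needed for the lens, the retina and the endocrine cells and Pax4 for the insulin-producing beta cells. Pax6 (chr2:105668900-105697364, plus strand, 28.5 kb, 24 start sites) had the most even domain of the family. The widest peak at its start sites measured 40747 and 39529 bp at E14 and 38960 and 36518 bp at E17. It reached from 16.4, 15.4, 15.3 and 12.9 kb upstream of the gene start to 24.3, 24.1, 23.6 and 23.6 kb downstream, so that the downstream edge moved less than the upstream edge. All 24 start sites were inside this 1 peak in every library. By width it was peak number 31 and 10 of the E14 lists and number 7 and 6 of the shorter E17 lists. By fold enrichment, the ratio of pileup to local background, it was number 8 and 17 at E14 and number 32 and 61 at E17. Its windows were covered over 26140 and 25962 bp at E14 and over 25455 and 25470 bp at E17, a retention of 97.7% (exact permutation test, two-sided, p = 0.333). The domain also held the starts of the noncoding genes Paupar, 7.56 kb from the Pax6 start, and Pax6os1, an antisense gene at 1.43 kb, in all 4 libraries.

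Pax4 (chr6:28442334-28449353, minus strand, 7.02 kb, 4 start sites) had the lowest ranks and the lowest retention of the family. At E14 a peak of 11392 bp in replicate 1 and of 6467 bp in replicate 2 ran over the start of the gene. At E17 the peak covering the most was 2445 bp wide in replicate 1 and 1420 bp wide in replicate 2, and it lay upstream, from 3.06 to 0.612 kb and from 2.67 to 1.26 kb before the start. A second, small peak of 349 and 454 bp lay inside the gene in the E17 libraries, at different places, and no base of the body was covered in both. Windows were covered over 5856, 6243, 2738 and 1874 bp in E14 replicates 1 and 2 and E17 replicates 1 and 2, so that the stages did not overlap, and the retention was 38.1% (exact permutation test, two-sided, p = 0.333). The strongest Pax4 peak stood at percentile 88.3 and 83.9 of fold enrichment at E14 and at percentile 72.7 and 51.1 at E17, the lowest of the family in every library. At a −log10 q-value of at least 5 no Pax4 peak was left at E17 and the retention was 0%, while it was 14.98% with windows of 1000 bp and 58.7% with peaks within 3000 bp of each other joined. With lists of equal covered length the genes marked at E14 numbered 8, all members except Pax4, while all 9 were marked at E17.

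Pax3 and Pax7 mark progenitors of muscle and neural crest, and Pax7 marks the satellite cells of adult muscle. The peak at the Pax3 start (chr1:78101267-78197134, minus strand, 95.9 kb) measured 58446 and 37082 bp at E14 and 33816 and 33892 bp at E17, and that at the Pax7 start (chr4:139737062-139833528, minus strand, 96.5 kb) measured 38793 and 32712 bp at E14 and 22381 and 20053 bp at E17. For both genes the E17 peaks were narrower than the E14 peaks, with a retention of width of 70.9% for Pax3 and 59.3% for Pax7, and for both the windows stayed covered in full. The Pax3 body had the highest coverage of the family in E14 replicate 1, at 94.1%, and 74.6%, 55.5% and 47.5% in E14 replicate 2 and E17 replicates 1 and 2. It was 1 long domain broken into few pieces in the first of these libraries and many short ones in the others, with 3, 14, 17 and 17 separate body peaks away from the start sites. A body peak that overlapped no exon began 51.5, 51.3 and 51.9 kb into Pax3 and measured 10865, 11689 and 9354 bp in E14 replicate 2 and E17 replicates 1 and 2, and in E14 replicate 1 it was part of a peak of 29793 bp. The Pax7 body was covered over 45.5% and 33.1% at E14 and over 21.7% and 17.5% at E17. Peaks between 60.2 and 67.4 kb into Pax7 were present in both E14 libraries and in neither E17 library.

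Pax2, Pax5 and Pax8 act at the midbrain-hindbrain boundary, Pax2 and Pax8 also in the inner ear and the kidney, Pax5 fixes the B cell lineage and Pax8 is a regulator of the thyroid. The Pax2 start (chr19:44756045-44837871, plus strand, 81.8 kb) lay in a peak of 52011 and 27470 bp at E14 and of 25936 and 25246 bp at E17. The width of this single peak in E14 replicate 2 was thus close to that at E17. That closeness did not hold with peaks within 3000 bp joined. The Pax2 domain then measured 56413 and 62738 bp at E14 and 51326 and 34730 bp at E17. The windows of Pax2 were covered in full in all 4 libraries, while its body was covered over 54.2%, 35.0%, 23.7% and 15.5%. A separate domain over the last exon of Pax2 was present in each library, with peaks of 14747, 7312, 7282 and 5809 bp at percentiles 94.2, 96.3, 96.0 and 94.7 of fold enrichment in the same order. With this one included, the body peaks of Pax2 away from the start sites numbered 12 and 15 at E14 and 8 and 3 at E17. The noncoding gene AC138457.1 starts inside the Pax2 domain, 16.2 kb from the Pax2 start.

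Pax5 (chr4:44524757-44710487, minus strand, 186 kb) kept its start-site coverage while its peak broke up. A single peak of 28798 and 25797 bp covered the start at E14. At E17 the widest peaks were 9858 and 9446 bp, and the domain was divided by gaps just downstream of the start, between 1340 and 1998 bp in replicate 1 and between 351 and 1182 bp in replicate 2. Window coverage was 12674 bp in both E14 libraries and 12469 and 11844 bp at E17, a retention of 95.9%. By fold enrichment the strongest Pax5 peak was number 214 and 288 of the E14 lists and number 45 and 27 of the E17 lists, or percentile 99.0, 98.3, 99.6 and 99.6. Pax5 was the 1 gene of 9 with a higher percentile in both E17 libraries, beside 1.7% of the genes marked in all 4. Its fold enrichment itself was 7.46 and 7.19 at E14 and 5.92 and 5.92 at E17, and the fold enrichment of the strongest peak was lower in both E17 libraries for all 9 genes, beside 85.6% of the genes marked in all 4. The lists differ in length and in the range of fold enrichment, so that neither the ranks nor the fold enrichments are on a common scale. A peak that overlapped no exon began 43.3, 43.5, 44.8 and 44.96 kb into Pax5 and measured 6486, 4828, 4487 and 3476 bp in the same order, with percentiles of 95.9, 94.1, 93.6 and 78.7. The gene 5730488B01Rik, whose start is 7.69 kb from that of Pax5, began inside the domain in all libraries.

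Pax8 (chr2:24420560-24475599, minus strand, 55.0 kb) had the narrowest start peak after Pax4 by the mean at E14, 10329 and 9540 bp, and 6321 and 7030 bp at E17. Its windows were covered over 5280 and 5244 bp at E14 and over 4472 and 5162 bp at E17, so that E17 replicate 2 was close to the E14 values. The peak was narrow but ranked high, at percentile 99.0, 98.4, 98.6 and 99.1 of fold enrichment, with no order between the stages. Neither of its 2 internal start sites far from the gene start was in a peak, and no gene apart from Pax8 started inside the domain in all 4 libraries.

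Pax1 and Pax9 act in the sclerotome, which gives the vertebrae, and in the pharyngeal pouches, and Pax9 is needed for the teeth and the palate. The widest Pax1 peak (chr2:147361925-147393295, plus strand, 31.4 kb) measured 25160 and 12251 bp at E14 and 6607 and 8848 bp at E17. Its windows were covered over 12358 and 11670 bp at E14 and over 9013 and 8848 bp at E17, a retention of 74.3% (exact permutation test, two-sided, p = 0.333). In E17 replicate 1 the peak was broken between positions 147364683 and 147365351, which left the promoter sequence shown above uncovered, while a single peak ran over it in E17 replicate 2. That promoter is of an internal start 3.07 kb into Pax1, and the start of the gene itself was inside a peak in all 4 libraries. Pax1 stood at percentile 98.1 and 97.8 of fold enrichment at E14 and at 90.1 and 84.5 at E17, so that its stages did not overlap in rank either. The Pax9 windows (chr12:56691767-56712822, plus strand, 21.1 kb) were covered in full in all 4 libraries, under a widest peak of 29784, 24260, 23587 and 17456 bp. The Pax9 body was covered over 80.2%, 58.9%, 58.0% and 55.5%, so that E14 replicate 2 lay nearer to the E17 libraries than to the other E14 library. Antisense genes started inside the domains of both in all libraries, AI646519 at 0.868 kb from the Pax1 start and Gm15524 at 1.20 kb from the Pax9 start.

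Across the family the widest peak was narrower in both E17 libraries for 9 of 9 genes, beside 80.9% of the genes marked in all 4 libraries. Its median retention of width was 64.4%, beside 54.5%. A widest peak of at least 10 kb in all 4 libraries was found at 5 of 9 genes, beside 10.5%. The order of the E17 widths, from Pax6 over Pax3, Pax2, Pax7 and Pax9 to Pax5, Pax1, Pax8 and Pax4, was that of the means of 37739, 33854, 25591, 21217, 20522, 9652, 7728, 6676 and 1932 bp. The libraries of neighbours overlapped for Pax7 and Pax9 and for Pax1 and Pax8. They did not overlap for Pax6 and Pax3, Pax3 and Pax2, or Pax2 and Pax7. Nor did they for Pax9 and Pax5, Pax5 and Pax1, or Pax8 and Pax4. This order is of single peaks, and parts of it changed with peaks within 3000 bp joined. The widest joined E17 domain measured 29461 and 24655 bp at Pax5 and 25336 and 23313 bp at Pax9, so that these 2 overlapped.

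By rank the Pax peaks were among the strongest of each list. The strongest peak near a start site stood at or above percentile 95 of its list for 8 and 8 of the 9 genes in the E14 libraries and for 7 and 7 in the E17 libraries, beside 20.3%, 18.6%, 17.2% and 14.9% of the marked genes. The median percentile of the 9 genes was 98.7 at E14 and 97.0 at E17, and that of all genes marked in all 4 libraries was 92.1 and 79.0. The percentile was lower in both E17 libraries for 5 of 9 genes, Pax1, Pax3, Pax4, Pax6 and Pax9, beside 73.3%. With lists of equal covered length the median percentile of the Pax genes was 88.0 at E14 and 95.2 at E17, so the direction of this small difference depended on the length of the lists.

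**Figure D4:**
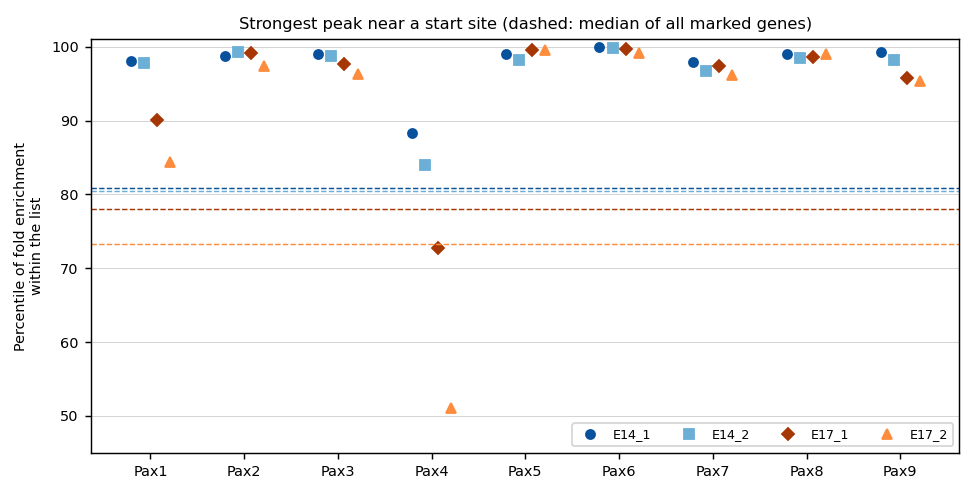
Percentile of fold enrichment of the strongest peak near a start site within its own list (y axis, from 45 upward) for each Pax gene (x axis), with 1 point per library and dashed lines at the median of all marked genes of each library. Points other than those of Pax1 and Pax4 lie above percentile 95 in every library, and the Pax4 points stand at 72.7 and 51.1 at E17, below the median of the marked genes of their libraries.

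CpG content at the gene start ranged widely in the family. In the 2001 bases centered on the gene start, Pax2 held 127 CpG, Pax7 109, Pax6 92, Pax3 87, Pax9 86, Pax1 61, Pax5 56, Pax8 40 and Pax4 11. The median of the 9 was 86, which was also the median of the 2640 protein-coding genes marked in all 4 libraries, beside 61 over all 21916 protein-coding genes, and Pax1, Pax5, Pax8 and Pax4 were at or below the latter. Pax4, with the fewest CpG, had the lowest retention and the lowest ranks, and 11.4% of protein-coding genes had fewer. Pax8, with 40 CpG, ranked above percentile 98 in all 4 libraries, so that the order of CpG content was not the order of rank.

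**Figure D5:**
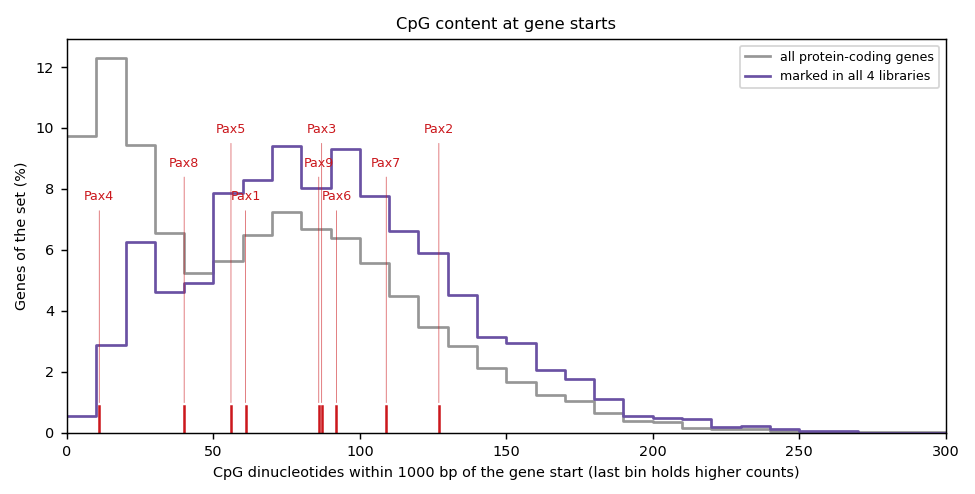
Percent of genes (y axis) by the number of CpG within 1000 bp of the gene start (x axis, bins of 10), for all protein-coding genes in gray and for those marked in all 4 libraries in purple, with the 9 Pax genes as red marks. The Pax genes range from 11 CpG at Pax4 to 127 at Pax2, and their median of 86 equals that of the marked genes.

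Among 2636 other protein-coding genes marked in all 4 libraries, those whose window coverage was most like the median of the Pax genes were Gata6, Pou4f3, Cilp2, Ina and Kcnk12, at Euclidean distances of 3.29, 3.76, 4.38, 4.59 and 5.02 percentage points over the 4 libraries. Gata6, a zinc finger factor of heart and endoderm, was covered over 100%, 95.8%, 91.9% and 91.5% of its windows in E14 replicates 1 and 2 and E17 replicates 1 and 2, beside Pax medians of 100%, 94.4%, 89.5% and 89.6%.

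Of a list of 40 partners and targets of Pax factors, 32 were marked at E14 and 25 at E17. The shares were 11.6% and 7.11% of all genes and 19.5% and 12.2% of protein-coding genes. The list was chosen with earlier results of these data known, so its counts and retention are a description and no test. No peak in any library was found for 8, and the median retention of those marked at E14 was 86.6%, beside 39.9%. Coverage was lower in both E17 libraries for 15 of the 32, beside 81.9%, and higher in both for 1, beside 0.326%. The latter was Six4, named after its values were seen, with 2789 and 3690 bp at E14 and 4901 and 4658 bp at E17. Among those with a peak in both E14 libraries and in neither E17 library were Meox1 and Tbx18, factors of the somite, Myf5, a determinant of muscle, Gdnf, a ligand that guides the ureteric bud, and Tg, which encodes thyroglobulin. The E14 coverage of these 5 was low in replicate 2, from 365 bp for Tg to 2150 bp for Gdnf. The windows of 9 genes of the list, Six2, Uncx, Foxd3 and Lhx1 among them, were covered in full in all 4 libraries. No covered length was lost there, while a loss inside the peaks could not show in this measure. Picked with its values in view, Osr2, a factor of palate and limb mesenchyme, had 10110 and 10148 bp at E14 and 305 and 605 bp at E17. Among those without a peak were the differentiation genes Gcg, Ins2, Dct and Cd79a and the regulators Met, Mitf and Ebf1.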

How the data were processed

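The material was 4 H3K27me3 peak lists of dermal fibroblasts, 2 labelled E14 and 2 labelled E17. Per the labels, chromatin was sonicated and cells were grown in DMEM with serum, while the methods name another medium and an enzymatic kit. The submitters' processing notes name Bowtie2 2.3.5.1, SAMtools 1.9, MACS2 2.2.7.1, deepTools 3.5.1 and the build mm10. The authors called broad peaks in each library separately at a q-value threshold of 0.01. The lists deposited by the authors give for every peak its fold enrichment, a ratio of pileup to local background, a −log10 p-value, a −log10 q-value and an integer score. Fold enrichment ranked peaks within a list, the −log10 q-value filtered them, and the p-value and the score were not used. Subsampling to a common read depth is stated in the methods for some samples of the later stage, and whether it covers these libraries is not clear. The lists hold no read counts, so no interval for a single peak could be given.

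Start sites and gene bodies came from the GENCODE annotation of GRCm38 and promoter sequences from RefSeq. The 9 Pax genes are a gene family taken by symbol, and the members, the list of partners and targets and the markers were chosen with earlier results of these data known. Covered length is the number of bases of a window or body inside peaks, and an overlap of at least 1 bp counted as presence. The percentile is the rank of a peak by fold enrichment within its list, counted from the lowest, with ties at their mean rank, as a percent of the peaks. Stages were compared by an exact permutation test over the libraries, two-sided, for single genes. Genes named beside the family are those that start inside a Pax domain of peaks joined within 3000 bp, the 5 nearest in window coverage, and partners with peaks in both E14 and neither E17 library, of which some are not reported here. Alternatives were thresholds on the −log10 q-value, peak width, window size, overlap, start of the gene only, lists of equal number or covered length, joined peaks, each library left out, and a replicate block. The scripts ran with scipy 1.17.1, pandas 2.3.3 and numpy 2.4.6 under Python 3.11.15 and were tested on simulated data.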

Additional observations from a re-analysis of the deposited data

How the results depend on the processing

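All 9 genes were marked at E14, at E17 and in all 4 libraries under every alternative run, except for 8 at E14 and in all 4 with lists of equal covered length and 8 at E17 and in all 4 at a −log10 q-value of at least 5. Leaving out a library could not lower these counts, and it could not change a value of the other stage. The decrease in the bodies does not use the windows, the overlap or the start sites, so those settings left it at 38.8%. Of 129 alternative values of the 9 results of the family, 91 lay within a limit and 38 outside it, and the cause was not tested. The 91 include the values that could not move. For counts the limit was a factor of 1.5, and for percentiles 1 SD between the libraries of the stage. For the decreases and the median retention it was 1 SD between same-numbered pairs of libraries, which depends on that pairing. This SD was 0.358 for the windows, 2.84 for the bodies and 0.038 for the median retention. The number of windows covered less in both E17 libraries was 3 with windows of 1000 bp. The decrease in the windows was 9.27% and 11.5% at a −log10 q-value of at least 3 and 5, 9.51% with peaks of at least 1000 bp, 10.3% and 10.5% with windows of 1000 and 5000 bp, 10.3% with the start of the gene only, 9.27% and 2.08% with lists of equal number and equal covered length, and 6.30% with joined peaks. The decrease in the bodies was 44.5% at a −log10 q-value of at least 5, and 31.4% and 15.4% with lists of equal number and covered length. The median retention was 99.4% and 98.0% with windows of 1000 and 5000 bp, 100% with the start of the gene only and with joined peaks, and 98.9% with lists of equal covered length. The median percentile at E14 was 98.0 and 94.8 at a −log10 q-value of at least 3 and 5, 97.5 with peaks of at least 1000 bp, and 96.6 and 88.0 with lists of equal number and covered length. At E17 it was 94.9, 88.3, 93.9 and 95.2 in the same order without the equal number. Leaving out each library in turn gave 8.35% to 9.35% for the windows, 31.1% to 45% for the bodies and 97.4% to 98.4% for the median retention. With the replicate block, the mean of the values within replicate numbers, these were 8.85%, 38.6% and 98.4%. The numbers do not pair the libraries by any label, and the deviations of same-numbered libraries correlated at 0.098 across 3871 genes, which are not independent. Against protein-coding genes only and autosomes only, the share marked was 19.5% and 12.4% at E14 and 12.2% and 7.60% at E17. The lists do not show how deeply a library was sequenced, the exact permutation test with 2 libraries per stage cannot pass 0.05, and a covered length depends on how much each list called.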
